A study of Mus musculus with 14 samples.

Results

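The sebaceous gland is the lipid-secreting appendage of the hair follicle. The genes described here are 10 markers of it in the mouse: Awat1, Awat2, Mc5r, Scd3, Elovl3, Fa2h, Pparg, Adig, Cidea and Mgst1. They were chosen by name as genes known for their expression in sebocytes, but with earlier results of these data known. Shares of members set beside shares of all genes therefore describe them and carry no test. Each was found as 1 of the 24537 gene rows in both expression tables of the study. The study measured polyadenylated RNA by sequencing in cells sorted from the skin of mice whose hair had been depilated. It asked what the glucocorticoid receptor (GR, gene Nr3c1) of skin regulatory T cells does for hair follicle stem cells.

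The GR KO mice had the genotype Foxp3YFP-Cre GRfl/fl, in which a Cre recombinase under the Foxp3 gene removes the floxed GR gene from Foxp3+ Treg cells. The labels call the other mice WT and do not say whether they carried the Cre. Hair follicle stem cells (HFSC, CD34+ITGA6high) were sorted 4 days after depilation from GR KO mice (3 libraries) and GR WT mice (3 libraries). Since Foxp3 drives the Cre, the HFSC of the GR KO mice are cells next to the mutant Treg cells and are not themselves the targets of the deletion. Skin Treg cells were sorted 24 hours after depilation from GR KO mice (5 libraries) and GR WT mice (3 libraries). The labels used here give no strain, age or sex, and do not say whether replicates are separate mice, so every p-value measures the spread between libraries, which may be technical.

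Sebocytes arise from progenitors at the junction of the gland and the follicle, fill with lipid droplets and burst, releasing sebum onto the hair shaft. Pparg, a nuclear receptor activated by fatty acid ligands, drives their lipid programme. Mouse sebum is rich in wax esters and very long chain fatty acids, which are built by elongases, desaturases, hydroxylases and acyltransferases. The bulge cells selected by CD34 and ITGA6 lie below the gland and are not known as a source of sebum. Bulk RNA from a sort cannot tell apart a change in the number of sebocytes carried along from a change in RNA per cell.

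Values are TPM, a measure of a transcript's share of its library that is scaled for transcript length. Fold changes are log2 differences of TPM + 1, GR KO minus GR WT, tested with limma on every gene with a mean of at least 1 TPM. P-values were adjusted by Benjamini-Hochberg over all those genes, 12493 in HFSC and 11579 in Treg, and a gene was called at an adjusted p under 0.05. HFSC libraries held 4503903 to 7989728 recovered tags and Treg libraries 9167605 to 14461521. In HFSC the library of GR WT replicate 1 stood apart: it was the shallowest, and its score on the first principal component was 59.8, against -17.7 to -4.0 for the other 5 libraries. Results that rest on it are therefore also given without it. Nr3c1 was at 105.6 to 171.4 TPM in GR KO Treg libraries and 170.5 to 233.4 TPM in GR WT Treg libraries. Its log2 fold change was -0.71 with a limma adjusted p of 0.0722. Over 18 alternative settings of the fit the limma adjusted p ran from 0.0191 to 0.276, and in 4 of them it was under 0.05. Leaving out GR KO replicate 4 gave 0.027, and leaving out any other GR KO library gave 0.108 to 0.15. In HFSC, where the Cre is not expected to act, Nr3c1 was at 35.7 to 48.5 TPM in GR KO and 34.8 to 48.9 TPM in GR WT libraries.

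In the deposited mm10 annotation, Awat1 (chrX:100572247-100578206, plus strand) and Awat2 (chrX:100402222-100412587, minus strand) are neighbours 159.7 kb apart. Scd3 (chr19:44203288-44244016, plus strand) lies in the cluster of stearoyl-CoA desaturases, 150.4 kb from Scd1, and Elovl3 (chr19:46131899-46135694, plus strand) lies 1.89 Mb from it. Pparg (chr6:115362349-115490401, plus strand) and Mgst1 (chr6:138140537-138156752, plus strand) share chromosome 6. Adig is at chr2:158502612-158508198 on the plus strand and Fa2h at chr8:111345138-111393821 on the minus strand.

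Because most members were higher in GR KO than in GR WT HFSC, their promoters were searched for letters that known regulators of sebocytes and of lipid genes bind. RefSeq promoters (build GRCm38.p6, 250 bases before to 50 bases after a start) were at hand for 6 of the 10 members, 10 promoters in all, and none was at hand for Elovl3, Fa2h, Cidea and Mc5r. The 4 below start at or within 10 bases of the start deposited for the gene, and hold at least 1 of the motifs searched, on either strand. Capitals mark AGGTCA, the core bound by nuclear receptors, in Adig (chr2:158502362-158502661, plus strand); AGGTCA and the reverse complement of TATAAA, the TATA box, in Pparg (chr6:115362099-115362398, plus strand); the reverse complement of TTGCNNAA, the letters of C/EBP factors, in Mgst1 (chr6:138140277-138140576, plus strand); and the palindrome of the glucocorticoid response element, GNACA and TGTNC with 3 bases between, in Scd3 (chr19:44203038-44203337, plus strand).
Adig: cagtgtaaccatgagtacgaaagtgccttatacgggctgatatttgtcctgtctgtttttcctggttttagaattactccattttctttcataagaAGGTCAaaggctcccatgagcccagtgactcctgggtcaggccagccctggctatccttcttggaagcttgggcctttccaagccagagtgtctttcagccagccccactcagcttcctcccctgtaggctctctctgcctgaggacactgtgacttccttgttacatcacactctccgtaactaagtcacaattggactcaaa
Pparg: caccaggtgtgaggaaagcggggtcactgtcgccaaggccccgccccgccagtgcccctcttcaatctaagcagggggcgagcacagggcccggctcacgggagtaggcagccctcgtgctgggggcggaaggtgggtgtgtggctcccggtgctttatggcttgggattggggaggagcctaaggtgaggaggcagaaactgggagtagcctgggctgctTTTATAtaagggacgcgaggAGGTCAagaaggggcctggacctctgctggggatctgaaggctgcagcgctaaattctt
Mgst1: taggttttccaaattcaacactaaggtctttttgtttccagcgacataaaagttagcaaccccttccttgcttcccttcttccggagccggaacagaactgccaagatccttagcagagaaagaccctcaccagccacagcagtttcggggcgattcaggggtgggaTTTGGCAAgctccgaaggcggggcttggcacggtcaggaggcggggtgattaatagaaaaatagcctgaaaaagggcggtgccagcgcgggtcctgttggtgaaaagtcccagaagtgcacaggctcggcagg
Scd3: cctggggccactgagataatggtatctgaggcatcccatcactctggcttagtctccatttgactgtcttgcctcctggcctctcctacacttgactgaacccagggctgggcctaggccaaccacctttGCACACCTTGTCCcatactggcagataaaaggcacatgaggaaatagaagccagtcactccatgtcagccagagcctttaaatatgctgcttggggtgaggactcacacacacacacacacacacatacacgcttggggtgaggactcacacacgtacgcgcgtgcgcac
The shares of all 32851 RefSeq mouse promoters with these letters were 16.3% for AGGTCA, 13.6% for TATAAA, 10.8% for TTGCNNAA and 0.475% for the glucocorticoid response palindrome. Among the 10 member promoters, AGGTCA was in 3 (1 of Adig, 2 of Pparg), TTGCNNAA in 2 (Mgst1 and a downstream promoter of Pparg), and TATAAA and the glucocorticoid response palindrome in 1 each. The direct repeat bound by PPARG with its partner RXR, AGGTCA followed after 1 base by AGGTCA again, was in none of them and in 0.0396% of all promoters. TCACNCCAC, a sterol regulatory element, was likewise in none of them and in 1.24% of all promoters. A match describes letters in the window and is not a bound site.

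In HFSC, the transcripts of all 10 markers averaged higher in GR KO than in GR WT mice. Adig was the only one to pass the adjusted test. Adig encodes adipogenin, a small membrane protein first known from differentiating fat cells. In 8 of the 10 members, every GR KO library lay above every GR WT library, against 10.7% of all 12493 genes tested. No member showed the opposite, which 12.8% of all genes did. The median log2 fold change of the members was 0.84, beside -0.02 for all genes tested. With an unadjusted p under 0.05 and a higher level in GR KO there were 9 members, against 7.8% of all genes, and 4 had an adjusted p under 0.1, against 1.36% of all genes. Called higher was 1 member of 10, against 0.144% of all genes, and none was called lower, against 0.032% (0.176% in either direction). The summed TPM of the members was 2777, 3461 and 4170 in GR KO replicates 1 to 3, against 1426, 2022 and 1900.0 in GR WT replicates 1 to 3, so the groups did not overlap. Without GR WT replicate 1 the median was 0.77 and no member passed.

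**Figure D1:**
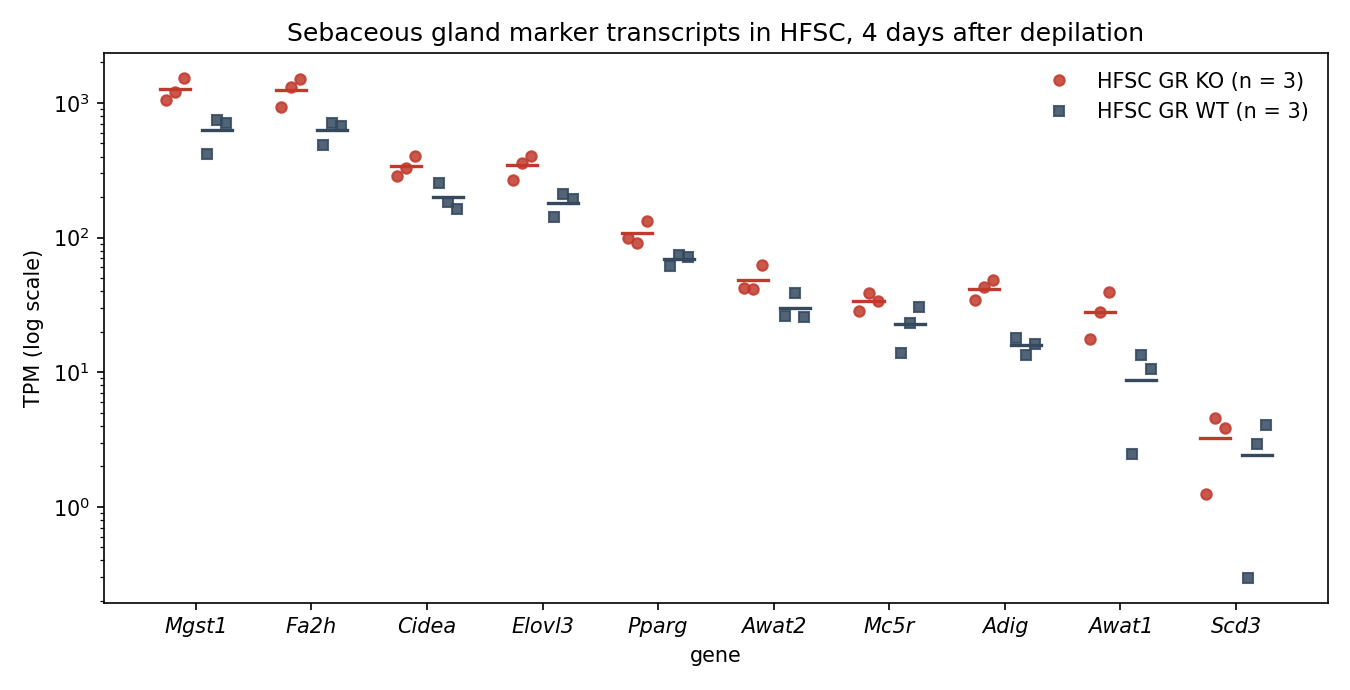
TPM of the 10 sebaceous gland markers in each HFSC library (log axis), GR KO (circles, n = 3) left of GR WT (squares, n = 3), with bars at the group means. For 8 genes all GR KO points lie above all GR WT points, and for Mc5r and Scd3 the groups overlap.

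Levels differed widely between members. In GR KO HFSC, Mgst1 and Fa2h averaged 1269 and 1253 TPM, and both averaged 626 TPM in GR WT HFSC, with overlapping ranges within each genotype. Cidea and Elovl3 came next and also overlapped each other in both genotypes. Pparg lay below them and above Awat2, apart from both neighbours in both genotypes. The remaining order in GR WT was Awat2, Mc5r, Adig, Awat1 and Scd3, and the GR WT ranges of these neighbours overlapped. Within each GR WT library, however, Awat1 was above Scd3. In GR KO HFSC, the range of Awat2 was apart from that of Mc5r, and Awat1 from Scd3, while those of Mc5r, Adig and Awat1 overlapped in turn. Within each GR KO library, Adig was above both Mc5r and Awat1.

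Among the members that make or modify the acyl chains of sebum, Fa2h was the most abundant. Fa2h, which puts a hydroxyl group on carbon 2 of fatty acids, was at 941, 1311 and 1507 TPM in GR KO libraries, against 489, 714 and 675 TPM in GR WT libraries. The lowest GR KO library exceeded the highest GR WT library. Its log2 fold change was 0.99 with a standard error of 0.20 (95% interval 0.53 to 1.46), and its limma adjusted p of 0.0785 missed the threshold. Without GR WT replicate 1 the difference was 0.82, with a limma adjusted p of 0.104.

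Elovl3, an elongase of saturated and monounsaturated very long chain fatty acids, stood at 269, 359 and 407 TPM in GR KO libraries, against 142, 209 and 193 TPM in GR WT libraries. Again the groups did not overlap. The log2 fold change was 0.92 with a standard error of 0.19 (95% interval 0.49 to 1.35) and a limma adjusted p of 0.0798, or 0.76 and 0.101 without GR WT replicate 1. Elovl3 kept an almost fixed place among the members, with 9.67 to 10.4% of their summed TPM in GR KO libraries and 9.96 to 10.3% in GR WT libraries.

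Scd3, a desaturase that puts the double bond into palmitic acid, was scarce. It was at 1.24, 4.57 and 3.87 TPM in GR KO libraries, against 0.298, 2.94 and 4.06 TPM in GR WT libraries. Both groups had 1 low library, replicate 1, and they overlapped. The log2 fold change was 0.41 with a 95% interval of -0.89 to 1.71 and a limma adjusted p of 0.757, and it was -0.18 without GR WT replicate 1. Scd3 shares letters with its family: 4.85% of the 50-base stretches of its transcript also occur in Scd1 and 3.95% in Scd2. The sources used here do not state how such reads were assigned, which leaves its low values uncertain.

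Awat1 and Awat2 are the acyl-CoA wax alcohol acyltransferases that join fatty alcohols to fatty acids as wax esters. Awat1 was at 17.5, 27.9 and 39.1 TPM in GR KO libraries, against 2.48, 13.4 and 10.5 TPM in GR WT libraries. Every GR KO library was above every GR WT library, and GR WT replicate 1 was far below its group. Its log2 fold change of 1.74 was the largest among the members and also the least precise but for Scd3, with a standard error of 0.51 (95% interval 0.56 to 2.92) and a limma adjusted p of 0.156. Leaving out GR WT replicate 1 gave 1.11 and an adjusted p of 0.141 in limma. The GR WT values rested on 10, 73 and 64 recovered tags.

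Awat2 was at 42.0, 41.2 and 62.9 TPM in GR KO libraries, against 26.0, 38.8 and 25.5 TPM in GR WT libraries. The groups were apart, but GR KO replicate 2 exceeded GR WT replicate 2 by a small margin. Its log2 fold change was 0.68 with a standard error of 0.22 and a limma adjusted p of 0.185. Although they are neighbours on the X chromosome, Awat1 and Awat2 transcripts share no 50-base stretch, and their longest common run is 17 bases.

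Mgst1, a membrane-bound glutathione transferase and peroxidase that protects lipids from oxidation, was at 1060, 1216 and 1533 TPM in GR KO libraries, against 419, 749 and 710 TPM in GR WT libraries. No GR WT library reached the lowest GR KO library. The log2 fold change was 1.05 with a standard error of 0.23 (95% interval 0.52 to 1.58) and a limma adjusted p of 0.0941, or 0.78 and 0.0872 without GR WT replicate 1. Of the 3 relatives of Mgst1 in the same enzyme family that were tested, none passed. Mgst3 averaged 66.7 ± 7.01 TPM in GR KO and 57.9 ± 6.92 TPM in GR WT HFSC, and Mgst2 averaged 25.4 ± 4.88 and 22.1 ± 2.23 TPM in GR KO and GR WT HFSC (SD, n = 3 each).

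Mc5r is the receptor for melanocortin peptides through which the mouse gland's secretion is stimulated. Its gene (chr18:68337603-68339711) and that of Cidea (chr18:67343564-67367794) are 969.8 kb apart, and the floxed Nr3c1 gene lies on the same chromosome, 28.9 Mb from Mc5r and 27.9 Mb from Cidea. It stood at 28.3, 38.7 and 33.7 TPM in GR KO libraries, against 13.9, 23.3 and 30.7 TPM in GR WT libraries. GR WT replicate 3 exceeded GR KO replicate 1, so the groups overlapped. With a log2 fold change of 0.60 (95% interval 0.00 to 1.21), it had a limma adjusted p of 0.300, and without GR WT replicate 1 the difference was 0.31.

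Pparg itself was at 99.5, 90.8 and 133.6 TPM in GR KO libraries, against 61.4, 74.1 and 72.2 TPM in GR WT libraries. Its groups did not overlap, and the GR WT libraries lay close together. The log2 fold change of 0.62 had a standard error of 0.16 (95% interval 0.26 to 0.98) and a limma adjusted p of 0.123, or 0.54 and 0.160 without GR WT replicate 1.

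Adig was at 34.3, 42.9 and 48.0 TPM in GR KO libraries, against 18.1, 13.4 and 16.3 TPM in GR WT libraries. The gap between the groups was wider than the range of either. It rose by a log2 fold change of 1.33 with a standard error of 0.17 (95% interval 0.94 to 1.73), and its limma adjusted p was 0.0413. The call was lost when any 1 of the 6 libraries was left out, with limma adjusted p-values of 0.0594 to 0.173 and fold changes of 1.22 to 1.47. Without the filter on low values, its adjusted p from limma was 0.0767. Adig has a short transcript of 627 bases, and its values rested on 95 to 135 recovered tags in GR KO libraries and 33 to 45 in GR WT libraries.

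Cidea coats lipid droplets and promotes their fusion. It was at 285, 329 and 403 TPM in GR KO libraries, against 255, 183 and 164 TPM in GR WT libraries. The groups were apart, and here GR WT replicate 1 was the highest of its group, whereas 7 members had their lowest value of all 6 libraries there. Cidea made up 17.9% of the members' summed TPM in that library and 8.62 to 10.3% in the other 5. The log2 fold change was 0.77 with a standard error of 0.19 (95% interval 0.34 to 1.19) and a limma adjusted p of 0.116, or 0.95 and 0.0702 without that library.

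Awat1, Elovl3, Fa2h and Mgst1 shared the same order of all 6 HFSC libraries, and the other 6 members each had an order of their own. GR KO replicate 3 held the highest value of 8 members and GR KO replicate 2 that of the other 2, Mc5r and Scd3. After each gene was centred on its own mean over the 6 HFSC libraries, Elovl3 and Fa2h lay nearest to the mean profile of the members, with root mean square differences of 0.046 and 0.060 on the log2 scale. Mgst1 followed at 0.110, Pparg at 0.241, Mc5r at 0.258 and Awat2 at 0.262. Adig (0.375), Cidea (0.398), Scd3 (0.549) and Awat1 (0.617) lay farthest from it, and the median of the 9737 genes compared was 0.553. The mean profile includes each member's own values, which shortens the members' distances, and the 9737 genes compared hold no member. These distances describe 6 libraries that share the genotype difference and carry no test.

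By the same measure, genes outside the lists that lay near the members' profile included these 7: Bche (0.059), Msmo1 (0.065), Crat (0.068), Hacd2 (0.075), Pafah2 (0.076), Tmem164 (0.076) and Fam126a (0.080). Msmo1 acts in cholesterol synthesis, Hacd2 is a dehydratase of the very long chain fatty acid elongation cycle, Crat moves acetyl groups to carnitine, and Bche encodes butyrylcholinesterase. Msmo1 was the most abundant of the 7, at 569 ± 95.1 TPM in GR KO and 314 ± 59.5 TPM in GR WT HFSC (SD, n = 3 each), with a limma adjusted p of 0.0782. None of the 7 passed the adjusted test, and their adjusted p-values from limma ran from 0.0689 to 0.139.

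Other genes of sebum lipid synthesis were examined as a list that holds none of the members. Of 19 tested, 1 was called higher and none lower in GR KO, 15 had positive fold changes, and the median was 0.66. Elovl6, which elongates palmitic to stearic acid, rose to 1691 ± 223 TPM in GR KO HFSC, against 756 ± 109 TPM in GR WT HFSC (SD, n = 3 each), a log2 fold change of 1.16 with a limma adjusted p of 0.0413. That call was lost when any 1 of the 6 libraries was left out (limma adjusted p of 0.0594 to 0.173) and without the filter on low values (0.0891). Far2, the reductase that makes fatty alcohols for wax, averaged 579 ± 139 TPM in GR KO and 272 ± 54.5 TPM in GR WT HFSC, with a limma adjusted p of 0.0749. Elovl4, an elongase of the longest chains, averaged 310 ± 102 TPM in GR KO and 124 ± 17.4 TPM in GR WT HFSC, and Scd1, the main desaturase of sebocytes, 4502 ± 422 TPM in GR KO and 2451 ± 594 TPM in GR WT HFSC. Neither passed the adjusted test.

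The list of PPAR and RXR receptors and lipid droplet targets had 15 genes tested, of which 12 were positive, 1 was called higher and none lower, with a median of 0.53. Plin2, the perilipin that coats droplets in many cells, rose to 1186 ± 83.5 TPM in GR KO HFSC, against 700 ± 51.9 TPM in GR WT HFSC (SD, n = 3 each), with a log2 fold change of 0.76 and a limma adjusted p of 0.0459. It too was lost without any 1 of the libraries (limma adjusted p of 0.0633 to 0.173) and without the filter on low values (0.0891). Cd36, a fatty acid transporter, averaged 38.7 ± 9.51 TPM in GR KO and 15.1 ± 5.53 TPM in GR WT HFSC, with a limma adjusted p of 0.0905. Pdk4, a kinase that spares glucose, averaged 80.3 ± 9.28 TPM in GR KO and 41.9 ± 11.1 TPM in GR WT HFSC, with a limma adjusted p of 0.0858. Lpl, which releases fatty acids from lipoproteins, averaged 131 ± 32.6 TPM in GR KO and 77.4 ± 4.54 TPM in GR WT HFSC (limma adjusted p of 0.105).

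**Figure D2:**
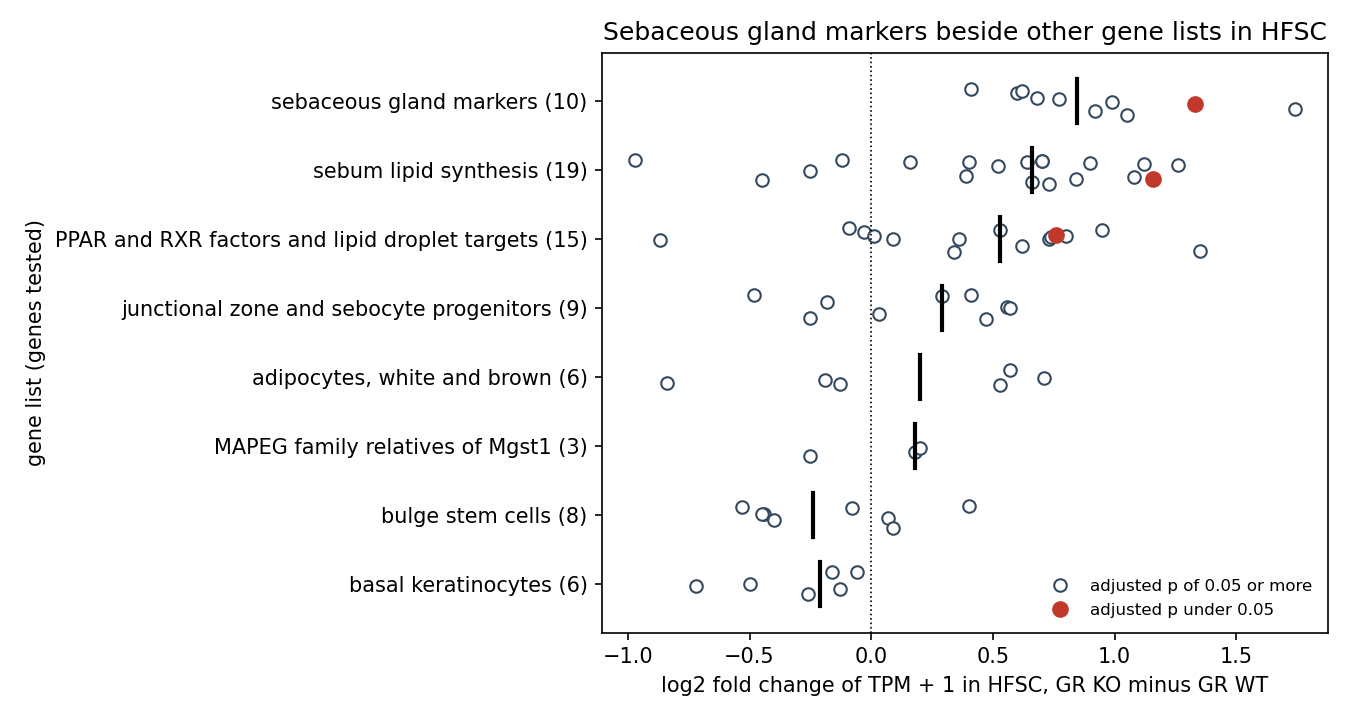
Log2 fold change of TPM + 1 in HFSC, GR KO minus GR WT, for each gene of 8 lists (points, filled where the adjusted p was under 0.05) with the list's median (bar). The medians were 0.84 for the markers, 0.66 for sebum lipid synthesis, -0.24 for bulge stem cells and -0.21 for basal keratinocytes.

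Markers of other cells in and around the HFSC sort are given beside these values, and their part in the members' difference was not tested. The 9 genes of junctional zone and sebocyte progenitors summed to 2157 to 2539 TPM in GR KO and 1636 to 1866 TPM in GR WT libraries; 6 of 9 were positive and none was called. Krt79, a keratin of the gland duct and infundibulum, averaged 1362 ± 143 TPM in GR KO and 923 ± 61.2 TPM in GR WT HFSC (limma adjusted p of 0.0782), while the progenitor gene Lrig1 averaged 128 ± 26.8 TPM in GR KO and 177 ± 20.7 TPM in GR WT HFSC. The 8 bulge stem cell genes summed to 4643 to 5946 TPM in GR KO and 5875 to 8613 TPM in GR WT libraries, with 3 of 8 positive and none called. Krt15 held most of these sums, at 4026 ± 560 TPM in GR KO and 5558 ± 1491 TPM in GR WT HFSC (limma adjusted p of 0.308). Tbx1, a transcription factor of bulge cells, averaged 290 ± 4.38 TPM in GR KO and 419 ± 8.29 TPM in GR WT HFSC (limma adjusted p of 0.0565). The 3 positive genes were Cd34, Itga6 and Lgr5. Cd34, used for the sort, averaged 169 ± 49.6 TPM in GR KO and 126 ± 20.7 TPM in GR WT HFSC (limma adjusted p of 0.376). The 6 basal keratinocyte genes summed to 12895 to 14961 TPM in GR KO and 17752 to 19985 TPM in GR WT libraries, and none of the 6 was positive or called.

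Several members are also fat cell genes. The 14 genes listed for white and brown adipocytes summed to 65.2 to 72.9 TPM in GR KO and 57.2 to 63.6 TPM in GR WT HFSC libraries, and of the 6 tested 3 were positive and none was called. The defining markers were at or near 0: leptin (Lep) and perilipin 1 (Plin1) were listed at 0 in all 6 libraries. Adipoq, which encodes adiponectin, was at 0 to 0.727 TPM in GR KO and 0 to 1.68 TPM in GR WT libraries, and the brown fat gene Ucp1 at 0 to 0.818 TPM in GR KO and 0 to 0.420 TPM in GR WT libraries.

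Skin Treg cells gave a different picture of the same genes at far lower levels. Elovl3, Fa2h and Mgst1 fell in GR KO Treg cells, and no member was called higher. Called lower were thus 3 of the 6 members that reached a mean of 1 TPM, against 1.31% of all 11579 genes tested, or 1.51% in either direction. In these 3, every GR KO library lay below every GR WT library, which held for 5.1% of all genes. Awat1, Awat2, Scd3 and Adig did not reach the filter, which used the mean over GR KO and GR WT libraries together. Elovl3 and Fa2h reached it only through GR WT libraries, averaging 0.524 and 0.693 TPM in GR KO and 5.85 and 3.70 TPM in GR WT. The share of 3 in 6 therefore depends in part on the direction counted. Without the filter, 3 of the 10 members were called lower, against 169 of all 16543 genes tested at that setting. The median log2 fold change of all 10 members was -0.50, beside -0.04 for the genes tested, and ran from -0.23 with a pseudocount of 5 to -1.07 with voom on recovered tags.

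Mgst1 was at 6.74, 21.6, 7.53, 7.65 and 9.14 TPM in GR KO libraries, against 49.1, 35.1 and 30.9 TPM in GR WT libraries. The groups did not overlap, and GR KO replicate 2 was the only GR KO library above 10 TPM. It fell by 1.87 on the log2 scale with a standard error of 0.32 (95% interval -2.57 to -1.18) and a limma adjusted p of 0.0136. Without GR WT replicate 1 the change was -1.69 with a limma adjusted p of 0.0752.

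Elovl3 was at 0.260, 0.840, 0.729, 0.298 and 0.491 TPM in GR KO libraries, against 7.94, 7.55 and 2.05 TPM in GR WT libraries. All GR KO libraries were under 1 TPM, on 4 to 12 recovered tags each, and GR WT replicate 3 was well below the other two. Its fall of 2.03 on the log2 scale had a standard error of 0.37 (95% interval -2.85 to -1.21) and a limma adjusted p of 0.0211. At these low levels the size depends on the pseudocount of 1, and it was -0.92 with a pseudocount of 5 and -3.13 with 0.1. The call was lost without GR WT replicate 1, with a limma adjusted p of 0.1, without GR WT replicate 2 (0.077), without GR KO replicate 5 (0.0501) and with quantile scaling (0.077).

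Fa2h was at 0.294, 1.27, 1.01, 0.600 and 0.297 TPM in GR KO libraries, against 3.66, 4.62 and 2.83 TPM in GR WT libraries. The highest GR KO library lay below the lowest GR WT library. It fell by 1.49 on the log2 scale with a standard error of 0.30 and a limma adjusted p of 0.0348, which was 0.102 without GR WT replicate 1 and was also above 0.05 without GR KO replicate 1, 4 or 5 or GR WT replicate 2 or 3. Quantile scaling gave a limma adjusted p of 0.107. The fold change was -0.61 with a pseudocount of 5 and -2.42 with 0.1, the second with a limma adjusted p of 0.084.

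Cidea was at 0, 4.53, 0.197, 1.29 and 0.477 TPM in GR KO libraries, against 4.17, 7.05 and 4.32 TPM in GR WT libraries. GR KO replicate 2 overlapped the GR WT libraries and the other 4 did not. Its log2 fold change was -1.70 with a limma adjusted p of 0.157, and without GR KO replicate 2 these were -2.09 and 0.0188. Pparg, at 1.10 to 7.57 TPM with a median of 3.18 in GR KO and 3.87 to 7.94 TPM with a median of 5.15 in GR WT libraries, overlapped (log2 fold change -0.59, limma adjusted p of 0.556). Mc5r ran from 0 to 4.08 TPM in GR KO and from 0 to 4.73 TPM in GR WT libraries, with a log2 fold change of -0.19 and a limma adjusted p of 0.932.

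The 4 members under the filter had at most 42 recovered tags in any Treg library. Awat1 was listed at 0 in 4 of 5 GR KO libraries and at 0.266 TPM in the other, and at 0, 0 and 0.416 TPM in GR WT libraries. Awat2 was at 0 to 3.42 TPM in GR KO and 0.685 to 0.837 TPM in GR WT libraries. Scd3 stayed at 0.323 TPM or less in GR KO and 0.611 TPM or less in GR WT libraries, and Adig at 0 to 1.25 TPM in GR KO and 0 to 2.85 TPM in GR WT libraries. Where Awat1 was listed at 0, a count of 0 allows up to 0.202 to 0.298 TPM (3 tags per library), and for the shorter Adig up to 0.440 to 0.659 TPM, counting error only. These limits take each tag as independent, yet 62.6 to 65.6% of the counts above 0 in Treg libraries were even. If tags came in pairs, the limits would be higher, which was not tested.

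**Figure D3:**
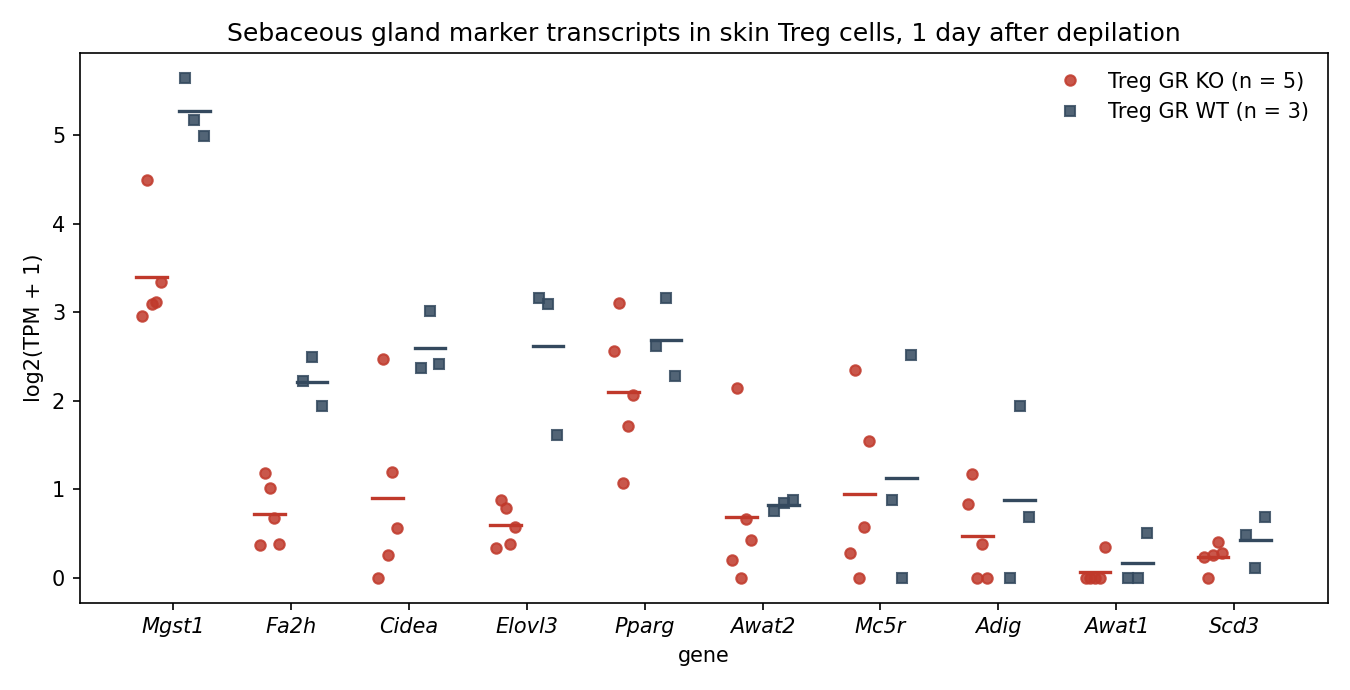
Level of the 10 markers in each Treg library as log2(TPM + 1), GR KO (circles, n = 5) left of GR WT (squares, n = 3), with bars at the group means. Mgst1, Fa2h and Elovl3 are lower in all 5 GR KO libraries than in any GR WT library, and the other 7 genes overlap.

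Set beside the stem cells, these levels were small. The summed TPM of the 10 members was 13.5, 44.5, 10.8, 13.8 and 16.3 in GR KO Treg libraries, against 71.9, 65.9 and 51.2 in GR WT Treg libraries. That amounts to 0.604 to 2.5% of the mean sum in GR WT HFSC for GR KO Treg libraries and 2.87 to 4.04% for GR WT Treg libraries. The tables were normalized library by library and tissues were not compared by a test. Per gene, Mgst1 reached 1.68% of its GR WT HFSC mean in GR KO Treg cells and 6.13% in GR WT Treg cells, and Fa2h 0.111% in GR KO Treg cells and 0.592% in GR WT Treg cells.

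Keratinocyte transcripts differed in the same direction in the Treg sort. The 6 basal keratinocyte genes, among them the keratins of the basal epidermis, summed to 5.98, 49.7, 67.4, 8.80 and 10.8 TPM in GR KO libraries, against 211, 183 and 307 TPM in GR WT libraries. The groups did not overlap, and all 5 tested genes of the list fell, among them Krt5 at 1.78 to 27.7 TPM in GR KO and 67.9 to 109 TPM in GR WT libraries (limma adjusted p of 0.0171, or 0.0711 without GR WT replicate 1 and 0.0891 without GR WT replicate 3). For Krt5 the limma adjusted p was also above 0.05 with a robust prior (0.133) and with the replicate number as a block (0.0636). The bulge list summed to 38.3 to 65.3 TPM in GR KO and 175 to 319 TPM in GR WT libraries, with 2 of 4 tested genes called lower. Krt15 was at 1.38 to 20.2 TPM in GR KO and 122 to 243 TPM in GR WT libraries (limma adjusted p of 0.00214). Among the GR KO libraries, replicates 2, 5, 4 and 1 came in that order, high to low, in both the keratinocyte and the member sum, while replicate 3 had the highest keratinocyte sum and the lowest member sum. Macrophage genes, at a sum of 49.5 to 131 TPM in GR KO and 174 to 289 TPM in GR WT libraries, and suprabasal genes, at 4.77 to 23.0 TPM in GR KO and 41.0 to 94.3 TPM in GR WT libraries, were also lower, with 2 of 5 and 3 of 5 tested genes called. Neutrophil genes summed to 0 to 20.8 TPM in GR KO and 75.6 to 324.5 TPM in GR WT libraries, with 2 of 3 tested genes called lower. The part of these other cells in the members' fall was not tested.

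Among the related lists in Treg cells, Elovl6 and Elovl4 of the 18 sebum lipid synthesis genes tested and Plin2 of the 11 PPAR and lipid droplet genes tested were called lower, and none was called higher. Elovl6 averaged 16.7 ± 4.43 TPM in GR KO (SD, n = 5) and 44.9 ± 10.7 TPM in GR WT Treg cells (SD, n = 3), with a log2 fold change of -1.39 and a limma adjusted p of 0.0129, which was 0.0605 without GR WT replicate 1. Plin2 averaged 21.2 ± 2.21 TPM in GR KO and 44.8 ± 18 TPM in GR WT Treg cells (SD, n = 5 and n = 3), with a log2 fold change of -0.98 and a limma adjusted p of 0.0394. The Plin2 call was lost without any 1 of the 5 GR KO libraries or GR WT replicate 3 (limma adjusted p of 0.0648 to 0.0903), and the Elovl4 call without GR WT replicate 1 (0.0926) or 2 (0.072). Both calls were also lost without the filter on low values, with quantile scaling and with the replicate number as a block. There the limma adjusted p was 0.0508 to 0.178 for Plin2 and 0.0524 to 0.0805 for Elovl4. The Foxp3 transcript that identifies Treg cells was at 137 to 205 TPM in GR KO and 160 to 281 TPM in GR WT Treg libraries, with a limma adjusted p of 0.381. Of the 8 Treg cell genes listed, all tested, 4 were positive, 1 was called lower and none higher. The 1 called was Il2ra, at 330 ± 11 TPM in GR KO and 485 ± 33.4 TPM in GR WT Treg cells (SD, n = 5 and n = 3). Its log2 fold change was -0.55 with a limma adjusted p of 0.00575.

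**Figure D4:**
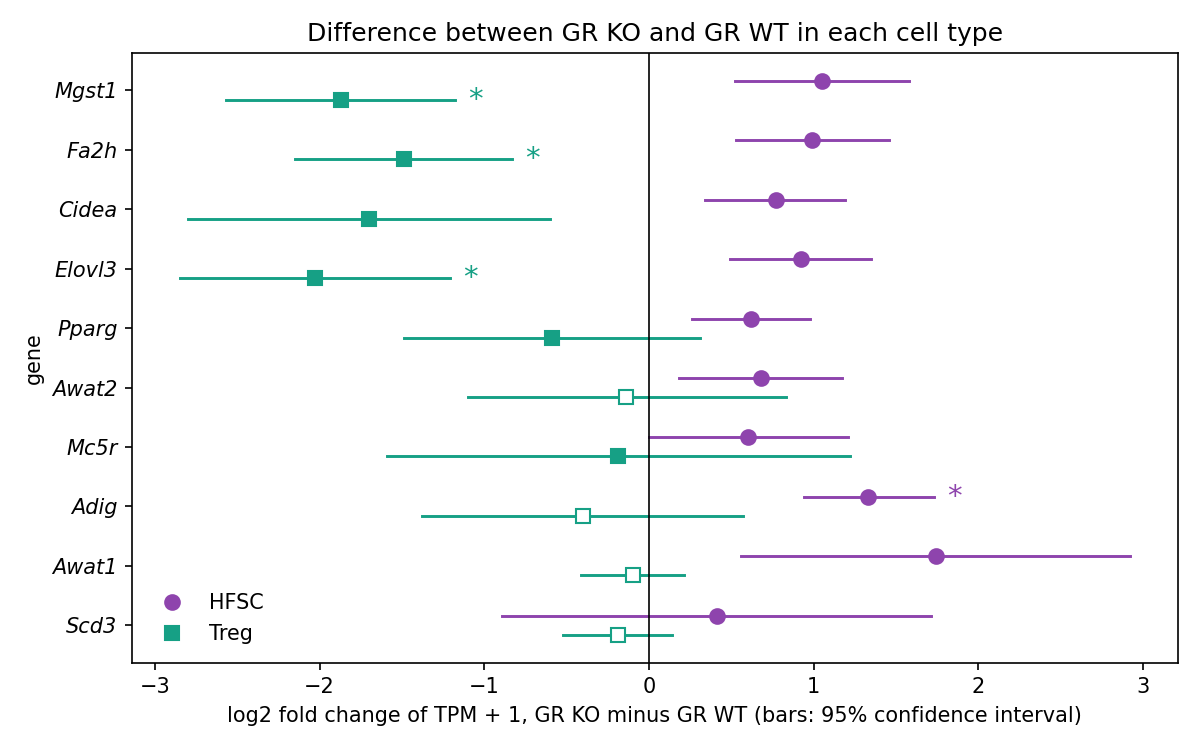
Log2 fold change of TPM + 1, GR KO minus GR WT, of each marker in HFSC (circles) and Treg cells (squares), with 95% confidence intervals. Stars mark an adjusted p under 0.05 (Adig in HFSC; Mgst1, Fa2h and Elovl3 in Treg cells), and open squares mark genes under the filter, which were not tested.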

How the data were processed

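Per the labels' protocols, polyadenylated RNA of FACS-sorted skin Treg cells and HFSC was made into strand-specific libraries. FastQC, Trim Galore, STAR and HOMER and the mm10 build are named in the submitters' processing notes, with no versions and no roles. In the authors' deposited tables, 1 for Treg cells and 1 for HFSC, each of 24537 genes has a transcript length and a TPM value per library, scaled within the library. TPM keeps no depth, but the deposited length let the low values be divided into tags, and 100% of them were whole within 0.1 of a tag. Libraries then held 4503903 to 14461521 tags, and intervals and floors cover counting error only. Of the counts above 0, 59.9 to 65.6% per library were even, so tags may not be independent of each other.

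Log2(TPM + 1) was tested with limma 3.58.1 (R 4.3.3, trended prior) within each table where a gene averaged 1 TPM or more, two-sided, with Benjamini-Hochberg adjustment over all of them. The scripts were tested on simulated data. An exact permutation test of 3 against 3 libraries cannot give a p under 0.1, so none is given. The members and the gene lists were chosen with earlier results of these data known. All 10 members are named, and of each list up to 4 genes by p in HFSC, with a few added as defining markers. The genes most like the members were ranked by root mean square difference in HFSC among genes averaging 5 TPM or more. A result for 1 of the genes so ranked is not reported here. Alternatives were the pseudocount, the filter, scaling, the prior, voom on recovered tags, sample weights, a replicate block and each library left out. Promoters came from RefSeq (GRCm38.p6), and repeat copies of a sequence were not sought in a genome.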

Additional observations from a re-analysis of the deposited data

Results flagged for a closer look

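In the 5 GR KO Treg libraries, 3 of the 10 markers had 1 library far from the rest. The rule nominally flags about 1 group in 20 for normally distributed values, and its share over all genes was not computed. The 3 markers share the same library, so they are not independent of each other. GR KO replicate 2 stood apart for Mgst1 (21.6 TPM), Cidea (4.53 TPM) and Awat2 (3.42 TPM), each the highest value of its group. Awat1 was at 0.266 TPM on 4 tags in GR KO replicate 5 and at 0 in the other 4 libraries, where any value above 0 stands apart, so it is not counted with them. No group of HFSC libraries was large enough for this comparison.

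The 10 markers and 8 genes of the lipid lists, chosen by their p in HFSC, were compared between the cell types. Of these 18, 13 were tested in both tables. In 7 of them, all GR KO libraries lay below all GR WT libraries in Treg cells, and above them in HFSC. That order held for 0.762% of the 10362 genes tested in both tables. The 8 list genes were picked for a small p in HFSC, so their separation there follows in part from the choice. In Treg cells, Elovl3, Fa2h and Lpl reached the filter only through GR WT libraries, averaging 0.524, 0.693 and 0.867 TPM in GR KO. Their direction in Treg cells is therefore tied in part to passing the filter, and the shares carry no test. Among the 10 members, chosen with earlier results known, the same order in both cell types held for 3. The log2 fold change was -2.03 in Treg cells and 0.92 in HFSC for Elovl3, -1.49 in Treg cells and 0.99 in HFSC for Fa2h, and -1.87 in Treg cells and 1.05 in HFSC for Mgst1. Among related genes it was -1.39 in Treg cells and 1.16 in HFSC for Elovl6, -1.75 and 1.26 for Elovl4, -0.98 and 0.76 for Plin2, and -0.97 and 0.73 for Lpl, in the same order of cell types. The cell types were sorted on different days after depilation, and the difference between them was not tested.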

How the results depend on the processing

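In HFSC the members' median of 0.84 ran from 0.71 to 0.99 over all alternatives, but calls moved. The 1 member called became 0 without the filter on low values, 5 with voom, 5 with sample quality weights and 4 with a replicate block, and 0 to 0 with each library left out. Over all genes, 22 calls (18 higher, 4 lower) became 2 without the filter, 48 at a mean of at least 5 TPM, 69 with median ratio scaling, 58 with quantile scaling, 51 with a robust prior, 483 with voom (240 higher, 243 lower), 584 with sample weights (314 higher, 270 lower), 66 with the replicate block and 0 to 5 with a library left out. The limma adjusted p under voom was 0.00971 for Fa2h, 0.0111 for Mgst1, 0.0119 for Elovl3 and 0.0301 for Cidea. In Treg cells 3 members called became 1 at a mean of at least 5 TPM, where Mgst1 alone was tested, 1 with quantile scaling, 0 with the replicate block and 0 to 4 with a library left out. The 175 genes called in Treg became 111 with the replicate block and 84 to 186 with a library left out, and the members' median of -0.50 became -1.07 with voom, -0.82 with a pseudocount of 0.1, -0.23 with a pseudocount of 5, -0.31 with quantile scaling and -0.31 to -0.73 with a library left out.

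Scd3 in HFSC (0.41) reversed to -0.18 without GR WT replicate 1, within a range of -0.18 to 0.82 over the libraries left out. Mc5r in Treg cells (-0.19) reversed to 0.08 with sample weights, 0.05 without GR KO replicate 3 and 0.51 without GR WT replicate 3, within a range of -0.75 to 0.51. Nr3c1 in HFSC (0.07) reversed to -0.09 with sample weights and to -0.01 and -0.05 without GR KO replicate 1 and GR WT replicate 3, with -0.05 to 0.2 over the libraries left out. Same-numbered GR KO and GR WT libraries correlated at 0.016, 0.062 and -0.042 in HFSC and 0.17, 0.087 and -0.117 in Treg cells. Libraries of different numbers correlated at -0.073 to 0.051 in HFSC and -0.243 to 0.177 in Treg cells. With so few libraries, this cannot tell whether the numbers pair the samples. The causes of the shifts between settings were not tested.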

Other observations

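Among the adipocyte genes, Pnpla2, the lipase that starts triglyceride breakdown, averaged 42.2 ± 3.63 TPM in GR KO and 28.0 ± 0.491 TPM in GR WT HFSC (SD, n = 3 each), with a limma adjusted p of 0.0796. Dio2, the deiodinase that activates thyroid hormone, averaged 7.85 ± 0.655 TPM in GR KO and 15.0 ± 2.95 TPM in GR WT HFSC (SD, n = 3 each), with a limma adjusted p of 0.0987. In the basal list, Krt17, a keratin of the hair follicle and gland duct, averaged 1929 ± 307 TPM in GR KO and 3156 ± 108 TPM in GR WT HFSC, with a limma adjusted p of 0.0689. None of these differences passed the threshold.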
